A study of Rattus norvegicus with 8 samples.

Results

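Reactive gliosis is the response of retinal glia to injury, and the 10 genes described here mark it or the acute phase response that goes with it: Gfap, Vim, Nes, Lcn2, A2m, Serpina3n, Stat3, Socs3, Fgf2 and Cd44. They were taken by gene name from the spots that are not controls, which gave 10 of 26334 gene names, 15 of the array's probes and 42 of 42877 spots. RNA of single retinas was measured on 4 Agilent arrays with 60-base probes, each array holding a retina in the red dye Cy5 and a retina in the green dye Cy3. All animals were female Lister Hooded rats aged 8 weeks. In the ONC group (4 retinas) forceps had crushed the optic nerve, 3 mm behind the disc, over 10 s, and the CTR group (4 retinas) was sham operated. Retinas were taken 2 weeks after surgery, and the methods state that each was profiled on its own. The p values rest on the spread between these 8 retinas, which without a block for the array includes what retinas on an array share.

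Müller glia span the retina, and astrocytes lie along its inner surface. After injury both build up intermediate filament proteins such as GFAP, vimentin and nestin, and cytokines of the interleukin 6 family, acting through the shared receptor gp130, JAK kinases and STAT3, are known to drive much of this program. The same route switches on acute phase proteins, secreted proteins that the liver makes in inflammation and that glia also make, and SOCS3, which feeds back on it. FGF2 is a growth factor that supports photoreceptors and ganglion cells after stress, and CD44 is a receptor for the matrix sugar hyaluronan that Müller glia carry on their microvilli.

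By the labels, CTR1 shared an array with ONC1, and so on to number 4, and Cy5 always marked CTR and Cy3 always ONC. Dye and condition therefore cannot be told apart in these channels. In the methods, by contrast, an array holds 2 retinas from a single group. Markers of retinal ganglion cells (RGCs), the neurons whose axons the crush severs, went against the labels. The median of the 11 of 14 markers that passed the spot filter, each less its mean over the 8 channels, was -1.55 in CTR1, 1.15 in CTR2, -1.02 in CTR3, -0.95 in CTR4, then 1.15, 1.15, 1.36 and -1.19 in ONC1 through ONC4 on the log2 scale. Their median was therefore high in ONC1, ONC2, ONC3 and CTR2 and low in the others. The median log2 difference, ONC less CTR, was 1.16, or 2.28 without CTR2 and ONC4, a rise that follows from leaving out channels picked by these markers. Isl1 and Tubb3 did not split this way. Isl1 was at 0.79, 0.91, 0.73 and 0.98 in CTR1 to CTR4 and at 1.51, 1.49, 1.49 and 1.48 in ONC1 to ONC4. Tubb3 was at 1.80 in CTR2 and at 2.24 in ONC4. All 11 markers were higher in ONC. Limma called 1 of them, with 2 at an unadjusted p under 0.05, against 0.497% and 18.6% of all genes. Every direction below is one between labels, and the log2 differences and list medians are also given without CTR2 and ONC4, the channels that stand apart from the rest of their group by these markers. A gene can differ between retinas because cells are fewer or because each holds less RNA, and bulk RNA cannot tell these apart.

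Levels are log2 values after background subtraction and loess within the array, with 0 at the median of the channel. All 10 genes passed the filter, which asks of a spot no outlier flag and a foreground at least 2 times the background in every channel, with 12 of 15 probes and 38 of 42 spots. The mean level of all 10 was lower in the ONC channels than in the CTR channels, and of 9 when channels were only scaled to their median, where Socs3 was higher. The share of lower genes among the 16307 that passed was 52.6%. On 4 of 4 arrays ONC was the lower channel for 6 of the 10 genes, against 21.2% of all genes. Their median log2 difference was -0.55, against -0.01 over all genes. None was called by limma at an adjusted p under 0.05, where 81 of 16307 genes (0.497%) were called, and the adjusted p of the 10 lay between 0.0799 and 0.778. At an unadjusted p under 0.05 there were 2 genes, Vim and A2m, where the share over all genes was 18.6%. With the array as a block, which removes what a pair of channels shares, limma called the same 2 genes, where 1254 genes (7.69%) were called. In that model 8 of the 10 had an unadjusted p under 0.05, where the share over all genes was 31.3%. Without CTR2 and ONC4, 415 genes (2.54%) were called by limma, 0 of the 10 among them. At an unadjusted p under 0.05 there were then 6 of the 10, where the share over all genes was 23.8%, and the median log2 difference of the 10 was -0.89, against -0.06 over all genes. The median moved to -0.27 without CTR4.

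**Figure D1:**
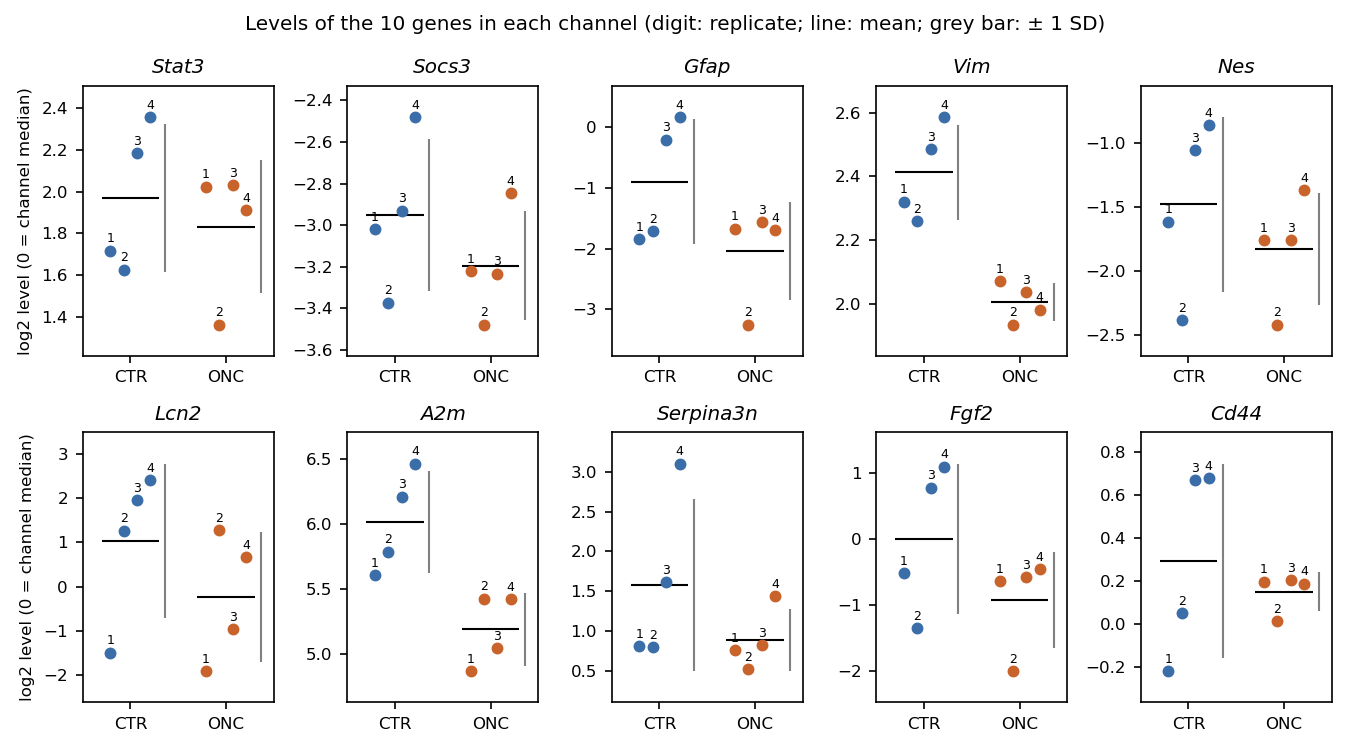
Each panel shows a gene, with its log2 level in the 4 CTR and the 4 ONC channels on the vertical axis (0 is the median of the channel), digits for the replicate, a line for the mean and a grey bar for 1 SD to either side. CTR4 is the highest point in 10 of 10 panels, and the groups stand apart without overlap for Vim and A2m.

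STAT3 carries the cytokine signal to the nucleus, and SOCS3 shuts it off. The level of Stat3 was 1.72 in CTR1, 1.63 in CTR2, 2.18 in CTR3, 2.36 in CTR4, then 2.02, 1.36, 2.03 and 1.91 in ONC1 through ONC4. Groups overlapped, with ONC2 lowest and CTR4 highest. Stat3 had a log2 difference of -0.14 (standard error 0.21, 95% interval -0.60 to 0.33, adjusted p = 0.778 by limma), and ONC was the lower channel on 3 of 4 arrays. Without ONC2 it was 0.018, without CTR4 -0.010, without CTR2 -0.25 and without CTR2 and ONC4 -0.28. Socs3, whose foreground was 3.30 to 5.73 times the background, was at -3.02, -3.37, -2.93 and -2.48 in CTR1 to CTR4 and at -3.22, -3.48, -3.23 and -2.85 in ONC1 to ONC4. ONC was the lower channel on 4 of 4 arrays, by log2 differences of -0.11 to -0.37, yet the groups overlapped. The groups of Socs3 stood -0.24 apart (standard error 0.20, adjusted p = 0.556 by limma), or 0.21 when channels were only scaled to their median, without loess. With a single retina left out the difference ranged from -0.39, without CTR2, to -0.09, without CTR4, and it was -0.50 without CTR2 and ONC4.

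Of 40 other genes of gp130, JAK and STAT signaling, 29 passed the filter, 20 of them lower and 9 higher in ONC, with a median log2 difference of -0.11. Scaled to the median alone, that median was 0.10, and it was -0.05 without CTR4, -0.17 without CTR2 and -0.21 without CTR2 and ONC4. Limma called 0 of the 29, and 4 had an unadjusted p under 0.05, against 18.6% of all genes. With the array as a block 1 was called, against 7.69% of all genes. It was Junb, a transcription factor gene that cytokines switch on within the hour. Junb was at 1.98, 1.70, 2.11 and 2.55 in CTR1 to CTR4 and at 1.56, 1.44, 1.39 and 1.60 in ONC1 to ONC4. All ONC channels lay under all CTR channels, with a log2 difference of -0.59 (standard error 0.16) and an adjusted p by limma of 0.113, or 0.0449 with the array as a block. With median scaling alone, where 19.6% of all genes were called, limma called Junb at -0.63 (adjusted p = 0.0337). Without CTR2 and ONC4 its log2 difference was -0.75.

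GFAP is the filament protein of astrocytes, which Müller glia take up after injury. Its probe, spotted 10 times, gave a level of -1.84 in CTR1, -1.71 in CTR2, -0.20 in CTR3, 0.17 in CTR4, then -1.67, -3.26, -1.57 and -1.69 in ONC1 through ONC4. CTR3 and CTR4 were high, ONC2 was low, and the other 5 channels lay close together. Between the 10 spots of a channel the SD was 0.15 to 0.31, a spread of the measurement and not of animals. Gfap had a log2 difference of -1.15 (standard error 0.54, 95% interval -2.37 to 0.06, adjusted p = 0.296 by limma), or 2.22-fold lower by the labels. On array 1 ONC was higher by 0.17, and on the other 3 arrays the log2 differences were -1.55, -1.37 and -1.86. Without ONC2 the log2 difference was -0.75, without CTR4 it was -0.80, and without CTR2 and ONC4 it was -1.54. With the array as a block the adjusted p was 0.0746. Another probe whose description, though not its gene name, is Gfap was looked up after the values were seen: its foreground was 1.85 to 4.71 times the background, and it did not pass the filter.

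Vimentin fills the processes of resting and reactive Müller glia alike. Its probe lies at chr17:87851390-87851449 on the plus strand of rn4, at base 711 of the transcript, and is shown because the gene was 1 of 2 whose groups stood apart.
Vim: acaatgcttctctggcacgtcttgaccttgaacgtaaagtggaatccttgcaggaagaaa
The level of Vim was 2.32 in CTR1, 2.26 in CTR2, 2.49 in CTR3, 2.59 in CTR4, then 2.07, 1.94, 2.04 and 1.98 in ONC1 through ONC4. All ONC channels lay under all CTR channels, as for 6.92% of all genes. The log2 difference was -0.41 (standard error 0.09, 95% interval -0.62 to -0.19), with an adjusted p by limma of 0.0799, or 0.0409 with the array as a block. ONC was lower on 4 of 4 arrays, by a log2 difference of -0.25 to -0.60, and without CTR2 and ONC4 the difference was -0.45. Between the 10 spots of the probe the SD was 0.14 to 0.52, highest in CTR3. Scaled to the median without loess, where limma called 19.6% of all genes, Vim was at -0.46 with an adjusted p of 0.0169, and A2m was the other of the 10 called. Over the alternatives the adjusted p of Vim ranged from 0.0169 to 0.441.

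Nestin is a filament protein of progenitors that reactive glia make again. Nes, as the mean of 2 probes, was at -1.61, -2.38, -1.06 and -0.86 in CTR1 to CTR4 and at -1.76, -2.42, -1.76 and -1.37 in ONC1 to ONC4. Both channels of array 2 were low, and the groups overlapped. ONC was lower on 4 of 4 arrays, with a log2 difference of -0.35 (standard error 0.34, adjusted p = 0.632 by limma). The 2 probes of Nes had log2 differences of -0.42 and -0.27. With a single retina left out Nes ranged from -0.65, without CTR2, to -0.14, without CTR4, and it was -0.15 without ONC2 and -0.80 without CTR2 and ONC4. Of 11 other filament and linker genes 9 passed, 4 higher and 5 lower with a median of -0.07, which was 0.06 with median scaling alone 0.03 without CTR4 or without ONC2, and -0.18 without CTR2 and ONC4. Limma called 0 of the 9 in either model. Without the block 0 were under an unadjusted p of 0.05, against 18.6% of all genes. The 2 with the smallest p were Synm, a partner of GFAP and vimentin, at 0.38 (standard error 0.19, adjusted p = 0.321 by limma), and the linker gene Dst at 0.19 (standard error 0.11, adjusted p = 0.405 by limma). Without CTR2 and ONC4 these were 0.63 and 0.32, and without CTR4 Dst was at 0.125.

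**Figure D2:**
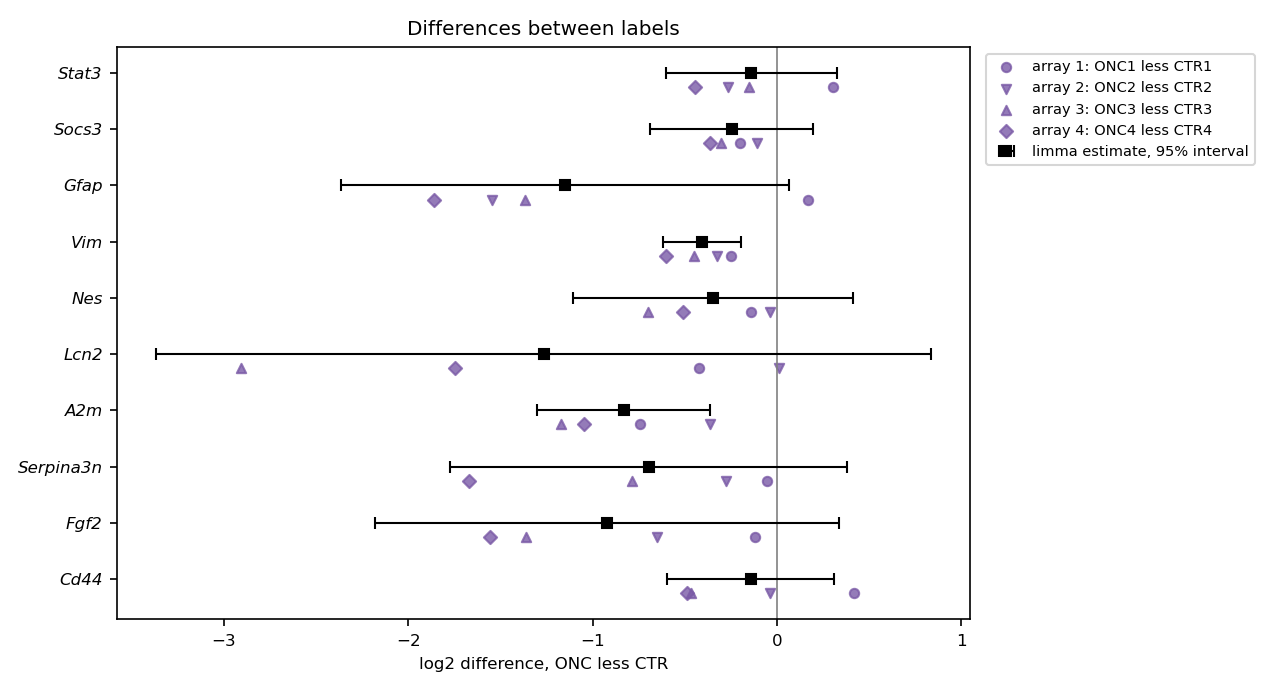
Black squares give the log2 difference of ONC less CTR by limma with its 95% interval, and purple symbols the difference between the 2 channels of each array. The intervals of Vim (-0.62 to -0.19) and A2m (-1.30 to -0.36) leave out 0, and arrays 3 and 4 lie under 0 for all 10 genes.

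Lipocalin 2, alpha-2-macroglobulin and the serpin A3N are secreted proteins of the acute phase, the first a binder of bacterial iron carriers and the others inhibitors of proteases. The level of Lcn2 was -1.49 in CTR1, 1.26 in CTR2, 1.95 in CTR3, 2.41 in CTR4, then -1.91, 1.27, -0.95 and 0.66 in ONC1 through ONC4. Lcn2 spanned 4.32 between its lowest and its highest channel, the widest of the 10 genes. Both channels of array 1 were low and both of array 2 were high, and the groups overlapped. Lcn2 had a log2 difference of -1.27 (standard error 0.93, 95% interval -3.37 to 0.84, adjusted p = 0.518 by limma). On the 4 arrays it was -0.42, 0.0094, -2.91 and -1.75. With a single retina left out it ranged from -2.11, without CTR1, to -0.71, without ONC1, and it was -0.81 without CTR4 and -1.49 without CTR2 and ONC4. In CTR2, CTR4, ONC1 and ONC3, the only channels to which labels and methods give the same dye, the log2 difference was -3.27 (adjusted p = 0.384 by limma, in a range of 0.128 to 1.0 over the alternatives).

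A2m was read by 2 probes, of which the one at chr4:158152445-158152504 on the plus strand of rn4 starts at base 4340 of the transcript and is shown because A2m was the other gene whose groups stood apart.
A2m: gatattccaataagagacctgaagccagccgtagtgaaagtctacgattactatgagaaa
The level of A2m was 5.61 in CTR1, 5.79 in CTR2, 6.21 in CTR3, 6.47 in CTR4, then 4.86, 5.43, 5.04 and 5.42 in ONC1 through ONC4. All ONC channels lay under all CTR channels. The log2 difference was -0.83 (standard error 0.21, 95% interval -1.30 to -0.36), or 1.78-fold lower by the labels, with an adjusted p by limma of 0.0886, or 0.0336 with the array as a block. ONC was lower on 4 of 4 arrays, least on array 2 (-0.36) and most on array 3 (-1.17), and without CTR2 and ONC4 the log2 difference was -0.98. Its probes had log2 differences of -0.73 and, for the one shown, -0.93. In the probe not shown the groups overlapped, with CTR1 at 5.14 and ONC2 at 5.49. The study's own criterion, an unpaired test together with a fold threshold set by each gene's spread, was applied to the values as processed here. A2m was the only gene of the 10 to pass this criterion. It was passed by 510 genes (3.13%), and the same test after Benjamini-Hochberg adjustment called 0 genes, with 2682 before it. Over the alternatives the adjusted p of A2m by limma ranged from 0.0126 to 0.384.

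The level of Serpina3n was 0.81 in CTR1, 0.79 in CTR2, 1.61 in CTR3, 3.11 in CTR4, then 0.76, 0.52, 0.82 and 1.43 in ONC1 through ONC4. CTR4 stood highest by far, and ONC4 was the highest ONC channel. The log2 difference was -0.70 (standard error 0.48, adjusted p = 0.480 by limma), without CTR4 it was -0.19, and without CTR2 and ONC4 it was -1.14. Of 30 other acute phase genes 13 passed the filter, 10 lower and 3 higher, with a median of -0.33. That median was -0.0022 with normexp and no filter on dim spots, -0.54 without CTR2 and -0.57 without CTR2 and ONC4. Limma called 0 of the 13, and 6 had an unadjusted p under 0.05, against 18.6% of all genes. With the array as a block 1 was called, against 7.69% of all genes. It was Itih4, a plasma protein of the hyaluronan-binding inter-alpha-trypsin family. Itih4 was at -2.98, -3.20, -2.96 and -3.05 in CTR1 to CTR4 and at -3.19, -3.46, -3.32 and -3.43 in ONC1 to ONC4, a log2 difference of -0.30 (standard error 0.10, adjusted p = 0.143 by limma, 0.0480 with the array as a block). With median scaling alone it was 0.21, and without CTR2 and ONC4 -0.33.

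The probe of Fgf2 lies at chr2:123946945-123947004 on the plus strand of rn4, at base 824 of the transcript. It is shown because Fgf2 had its highest channels and its lowest channel where Gfap had them, as Vim, Nes, Serpina3n and Stat3 also did.
Fgf2: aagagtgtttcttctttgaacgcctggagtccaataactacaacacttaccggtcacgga
Over 9 spots its level was -0.52 in CTR1, -1.35 in CTR2, 0.78 in CTR3, 1.10 in CTR4, then -0.64, -2.003, -0.58 and -0.46 in ONC1 through ONC4. As for Gfap, CTR3 and CTR4 were high and ONC2 was the lowest. Unlike for Gfap, CTR2 (-1.35) was low as well. The SD between spots of a channel was 0.19 to 0.40. Fgf2 had a log2 difference of -0.92 (standard error 0.56, 95% interval -2.18 to 0.33, adjusted p = 0.418 by limma), and ONC was lower on 4 of 4 arrays. It was -0.56 without CTR4 and -0.56 without ONC2, and -1.53 without CTR2 and ONC4. Of 24 other FGF ligands, receptors and feedback genes 18 passed, 10 higher and 8 lower with a median of 0.0078, or 0.17 with median scaling alone, -0.013 without ONC3 and 0.035 without CTR2 and ONC4. Limma called 0, with 7 at an unadjusted p under 0.05, against 18.6% of all genes. With the array as a block 1 was called, the ligand gene Fgf18, against 7.69% of all genes. Fgf18 was at -2.99, -3.29, -3.21 and -2.87 in CTR1 to CTR4 and at -2.35, -2.92, -2.49 and -2.56 in ONC1 to ONC4. ONC was the higher channel on 4 of 4 arrays, with a log2 difference of 0.51 (standard error 0.14, adjusted p = 0.116 by limma, 0.0367 with the array as a block). With median scaling alone it was 0.89, and limma called Fgf18, as also with Aquantile scaling of the arrays (adjusted p = 0.0415). Without CTR2 and ONC4 the log2 difference of Fgf18 was 0.43.

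Cd44 has 4 probes, and 1 passed the filter. In it the level was -0.22 in CTR1, 0.049 in CTR2, 0.67 in CTR3, 0.68 in CTR4, then 0.20, 0.012, 0.20 and 0.19 in ONC1 through ONC4. The ONC channels were close together, with an SD of 0.09 (n = 4), inside the range of the CTR channels with an SD of 0.45 (n = 4). Cd44 had a log2 difference of -0.14 (standard error 0.20, 95% interval -0.60 to 0.31, adjusted p = 0.761 by limma), and ONC was the lower channel on 3 of 4 arrays. Without CTR1 it was -0.32, without CTR3 -0.019, without CTR4 -0.016 and without CTR2 and ONC4 -0.24. The other 3 probes lie further up the transcript, at bases 1093, 1299 and 1967 against 3890, and were dim: the foreground was 0.87 to 3.85 times the background, and the probes at 1093 and 1967 were not well above background in any channel. Without the filter and with normexp background correction those 3 had log2 differences of -0.08, 0.06 and -0.07, sizes that depend on the background. Of 23 genes of hyaluronan, CD44 partners and proteases 16 passed, 10 lower and 6 higher with a median of -0.02, which was 0.11 with median scaling alone, 0.015 without CTR4, 0.028 without ONC2 and -0.13 without CTR2 and ONC4. In both models limma called 0 of the 16. Without the block 1 gene was at an unadjusted p under 0.05, against 18.6% of all genes. This was Spp1, the gene of the CD44 ligand osteopontin. Spp1 was at 0.19, 0.69, 0.36 and 1.82 in CTR1 to CTR4 and at -0.07, -0.11, -0.14 and -0.23 in ONC1 to ONC4, with a log2 difference of -0.90 (standard error 0.31, adjusted p = 0.168 by limma), or -0.55 without CTR4 and -0.89 without CTR2 and ONC4. Next was Hmmr, a hyaluronan receptor gene of dividing cells, at 0.67 (standard error 0.33, adjusted p = 0.321 by limma), or 0.36 without ONC4, whose array alone gave 2.13, and 0.34 without CTR2 and ONC4.

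Of 35 other genes that reactive astrocytes are known to express, 24 passed the filter, 19 lower and 5 higher in ONC, with a median log2 difference of -0.26. That median was -0.13 with median scaling alone, -0.14 with normexp and no filter, -0.16 without CTR3 or without CTR4, and -0.31 without CTR2 and ONC4. At an unadjusted p under 0.05 there were 8, each of them lower, against 18.6% of all genes. Limma called 0, and 3 with the array as a block, against 7.69% of all genes. These were the heat shock gene Hspb1 at -0.74 (standard error 0.32, adjusted p = 0.261 by limma, 0.0290 with the block), the immunoproteasome gene Psmb8 at -1.05 (standard error 0.42, adjusted p = 0.233, 0.0398 with the block) and the inhibitor of differentiation Id3 at -0.37 (standard error 0.32, adjusted p = 0.585, 0.0444 with the block). Id3 was at -0.66 without CTR1, -0.14 without ONC1 and -0.12 with median scaling alone, and Psmb8 was at -0.69 without CTR4. Without CTR2 and ONC4 they were at -0.26 and -1.41. Hspb1 was at 1.58, 1.09, 1.78 and 2.22 in CTR1 to CTR4 and at 0.84, 0.31, 0.79 and 1.76 in ONC1 to ONC4, lower in ONC on 4 of 4 arrays. Without CTR2 and ONC4 its log2 difference was -1.21 and limma called it, with an adjusted p of 0.0385 in a range of 0.0290 to 0.477 over the alternatives.

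**Figure D3:**
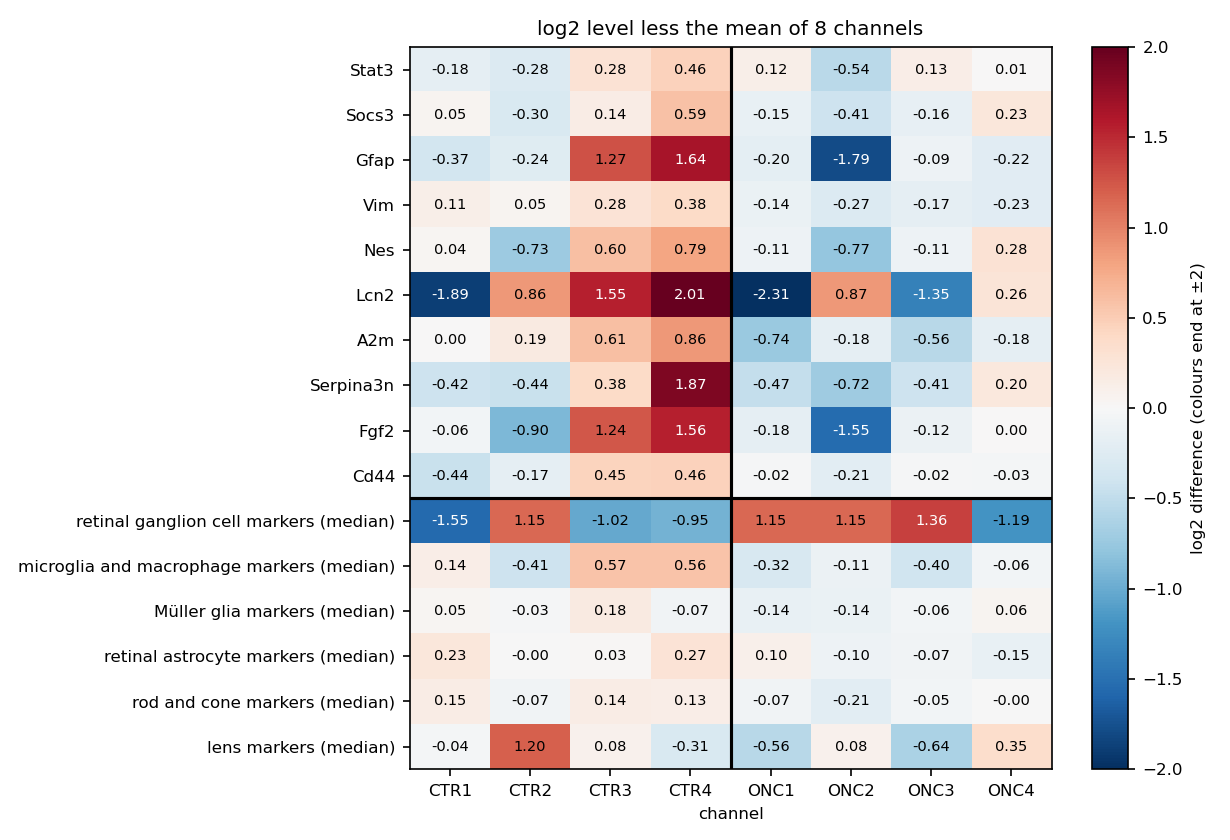
Each cell gives the log2 level of a gene, or the median of a marker list, less its mean over the 8 channels, with channels across and the 10 genes above the line. CTR3 and CTR4 are high for the 10 genes and for the median of microglia and macrophage markers, at 0.57 and 0.56. The median of RGC markers separates ONC1, ONC2, ONC3 and CTR2 from the others.

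Within the CTR group the 10 genes shared their highest channel. CTR4 was the highest channel for 10 of 10 genes, where it was the highest for 21.8% of all genes. ONC2 was the lowest for 7 of 10, where the share over all genes was 22.2%. The median of the 10, each less its mean over the channels, was -0.12, -0.26, 0.52 and 0.83 in CTR1 to CTR4, then -0.16, -0.47, -0.14 and 0.0056 in ONC1 to ONC4. The 12 microglia and macrophage markers, all of which passed, had medians of 0.14, -0.41, 0.57 and 0.56 in CTR1 to CTR4, then -0.32, -0.11, -0.40 and -0.06 in ONC1 to ONC4. These medians were high in CTR3 and CTR4 as well, but not every marker was. Cd74 was at 0.93, -2.54, 1.66 and 0.63 in CTR1 to CTR4 and at -1.03, -0.66, -0.83 and 0.87 in ONC1 to ONC4. Cx3cr1 was highest in ONC4, at 1.05, against 0.20 in CTR3 and 0.32 in CTR4. Of these 12 markers 11 were lower and 1 higher in ONC. Limma called 0, and 4 were at an unadjusted p under 0.05, against 18.6% of all genes. Their median log2 difference was -0.38, or -0.24 without CTR3, -0.58 without CTR2 and -0.62 without CTR2 and ONC4.

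The 13 of 14 Müller glia markers that passed had medians between -0.14 and 0.18 in the 8 channels, with markers that went both ways, 8 lower and 5 higher in ONC and a median log2 difference of -0.10, or -0.20 without CTR2 and ONC4, -0.041 without CTR1, -0.042 without CTR3 and 0.0020 from the scanner's processed signals. Limma called 0 of the 13 and, with the array as a block, 4, against 7.69% of all genes, and 5 were at an unadjusted p under 0.05, 4 of them lower, against 18.6% of all genes. Picked after their values were seen, Clu stood at 6.37 in CTR3 and 6.50 in CTR4 and Slc1a3 at 3.104 and 3.20, their highest channels, while Glul (2.97) and Car14 (2.03) were lowest in CTR4. Of the 12 rod and cone markers that passed, of 13, there were 9 lower and 3 higher in ONC, with a median log2 difference of -0.32, and -0.32 also without CTR2 and ONC4. Limma called 0 of these 12 and, with the array as a block, 3, against 7.69% of all genes. At an unadjusted p under 0.05 were 5, each of them lower, against 18.6% of all genes. The 5 of 6 retinal astrocyte markers that passed had medians between -0.15 and 0.27, with 0.23 in CTR1 and 0.27 in CTR4, and 4 were lower and 1 higher in ONC. Their median log2 difference was -0.27, or -0.00041 with median scaling alone -0.05 without ONC4 and -0.08 without CTR2 and ONC4. Limma called 0 of the 5 in either model. Without the block 1 was at an unadjusted p under 0.05, against 18.6% of all genes. The median of lens markers (11 of 11) was 1.20 in CTR2 and between -0.64 and 0.35 elsewhere, and 10 were lower and 1 higher in ONC, with a median log2 difference of -0.41, or -0.13 without CTR2 and -0.29 without CTR2 and ONC4. Markers of endothelium and pericytes (7 of 8 passed, -0.05) and of cornea and conjunctiva (4 of 8, -0.016) had small negative medians of the difference. Besides that of RGC markers (1.16), positive medians were those of pigment epithelium (5 of 9 passed, 0.19, all 5 higher), blood (2 of 6, 0.15) and oligodendrocytes (6 of 9, 0.06, 5 higher). Without CTR2 alone the median of blood was -0.054 and that of oligodendrocytes -0.011, and without ONC2 pigment epithelium was at 0.47 and cornea and conjunctiva at 0.12. Without CTR4 endothelium and pericytes were at 0.037. Without CTR2 and ONC4 the medians of these 5 lists, RGC markers aside, were, in that order, -0.09, -0.07, -0.015, -0.0012 and -0.05. With median scaling alone they were 0.017, 0.51, 0.47, 0.36 and 0.59. The part of these other cells in the levels of the 10 genes was not tested.

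The 5 genes whose levels followed Gfap most closely over the 8 channels were ENSRNOT00000007888 (Pearson correlation 0.986), Lgals3 (0.985), Rab22a (0.985), ENSRNOT00000005330 (0.985) and Nnat (0.984). These are the highest of 16307 genes over 8 channels, a description with no test. Lgals3, the gene of galectin 3, was at 1.58, 1.26, 3.398 and 3.72 in CTR1 to CTR4 and at 1.68, 0.25, 1.97 and 1.67 in ONC1 to ONC4, so that CTR3 and CTR4 were high and ONC2 was low there too.

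STAT proteins are known to bind the motif TTCNNNGAA, which reads the same on both strands. Promoter sequences of RefSeq on GRCr8, 250 bases before to 50 after the start of the gene, were at hand for 9 of the 10 genes, and 2 of the 9 held it, against 8.87% of 33469 promoters. Both are shown with the motif in capitals, on the plus strand, Serpina3n at chr6:129088244-129088302 and Fgf2 at chr2:122164301-122164359.
Serpina3n: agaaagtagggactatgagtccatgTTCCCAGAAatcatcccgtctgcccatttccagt
Fgf2: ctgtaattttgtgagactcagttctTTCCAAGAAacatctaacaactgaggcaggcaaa
The motif begins 123 bases before the start of Serpina3n and 128 before that of Fgf2. A match of letters is a description, and binding was not measured.

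**Figure D4:**
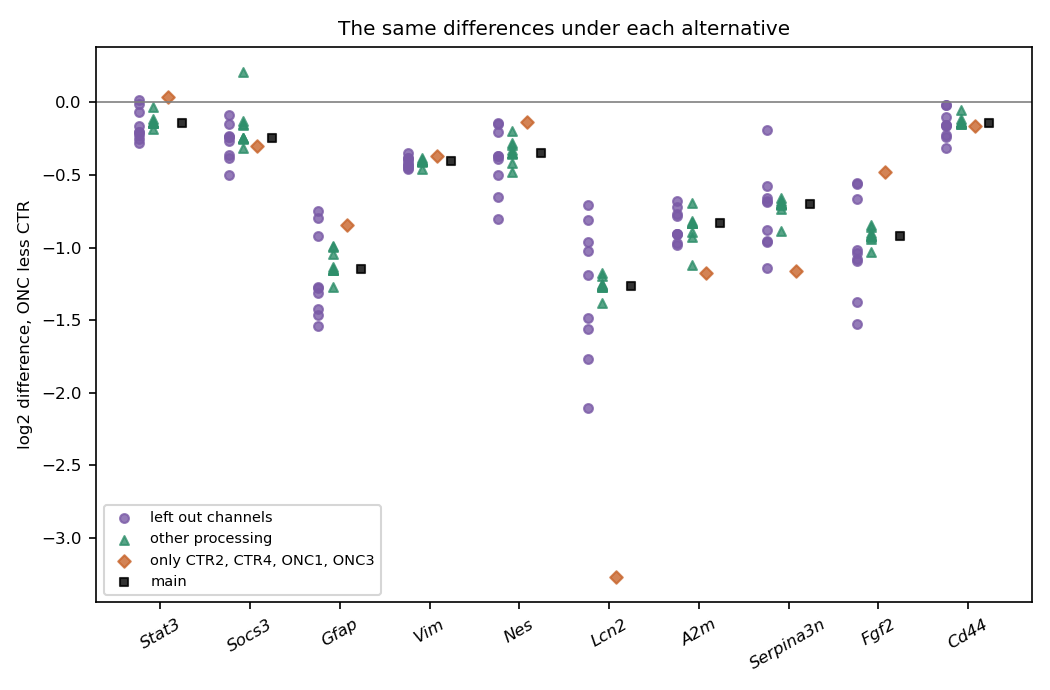
The vertical axis gives the log2 difference of ONC less CTR for each of the 10 genes, with black squares as reported, purple circles with channels left out, green triangles under other processing and orange diamonds for CTR2, CTR4, ONC1 and ONC3 alone. Stat3 and Socs3 cross 0, and Vim stays between -0.46 and -0.35.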

How the data were processed

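The authors deposited intensity values for each spot as the scanner software wrote them, with Feature Extraction 12.0.3.1 per the file headers and 11.1.19.1 per the labels: the mean foreground, the median local background and a processed signal. Median foreground was 446.6 to 626.0 in CTR channels and 218.1 to 494.7 in ONC channels. Controls, spots marked as outliers and spots whose foreground fell short of 2 times the background in 1 or more channels were left out, which kept 27371 spots and 18599 probes. Before these steps 71.9% to 75.0% of the spots in a CTR channel reached 2 times the background, against 98.2% to 99.9% in an ONC channel. The background rule therefore acted mostly through the CTR channels, and genes dim in CTR could be dropped whatever their ONC level. What this did to the counts of lower and higher genes in the lists was not tested. The methods do not name the outlier flags. The flags taken (uneven spot, spot away from its replicates, uneven background) were chosen after seeing the data, because they gave the spot count of an earlier analysis of these files. Of 2 other readings, the flags of the spot alone gave 27587 spots and 80 calls, and all flags gave 24110 spots and 113 calls, without Stat3 and Cd44.

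Signals were background-subtracted, normalized by loess within arrays and centered on the median of each channel. Log2 values were averaged over the spots of a probe and then over a gene's probes. The comparison of groups used lmFit and eBayes of limma 3.58.1 under R 4.3.3, two-sided, with Benjamini-Hochberg adjustment over 16307 genes. It had no block, since the methods use an unpaired test. Limma was checked on simulated data, and tables and plots were made in Python 3.11.15. The array pairs same-numbered channels, whose deviations from their group means correlated across genes at 0.149, 0.549, 0.401 and 0.487 on arrays 1 to 4. Channels of different number reached 0.171, more than the pair on array 1. The members and lists were chosen with earlier results of these data known. Named were the 10 genes and, from each of the 6 pathway lists, genes called with or without the array as a block, at most 6, or else the 2 with the smallest p, and 5 genes most like Gfap.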

Additional observations from a re-analysis of the deposited data

Results flagged for a closer look

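In groups of 4 channels, a channel stood far from the other 3 by Dixon's test in 5 of 76 groups, where chance gives about 1 in 20. ONC2 was such a channel for Gfap, at -3.26 against -1.69 to -1.57 in ONC1, ONC3 and ONC4, for Fgf2, at -2.003 against -0.64 to -0.46, and for Cd44, at 0.012 against 0.19 to 0.20. The median of RGC markers in ONC4 was -1.19 against 1.15 to 1.36 in the rest of that group. The median of rod and cone markers in CTR2 was -0.067, where CTR1, CTR3 and CTR4 lay between 0.13 and 0.15. Their causes were not tested.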

How the results depend on the processing

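Call counts, medians of the 10 genes and of each list, and log2 differences of the 10 genes and of genes named from pathway lists were recomputed under the alternatives. Calls within lists were recomputed only with the array as a block, and channel ranks, overlap of groups and the genes most like Gfap under none. Of the alternatives, the 2 readings of the outlier flags, and the use of all alternatives on listed genes and lists, were chosen after seeing the data. Leaving out CTR2 and ONC4 was planned, but these channels were picked by RGC markers of the same data. Of 198 values for the 10 genes, 191 kept direction and side of the threshold, 4 became called (Vim and A2m with median scaling and with the array as a replicate block) and 3 changed direction: Stat3 to 0.018 without ONC2 (-0.25 to 0.018 with a retina left out) and to 0.036 in CTR2, CTR4, ONC1 and ONC3 alone, and Socs3 to 0.21 with median scaling. Itih4 changed to 0.21 with median scaling.

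The 81 calls became 3194 with median scaling (71.0% higher in ONC, against 46.9%), 412 with Aquantile, 21 with processed signals, 27 with normexp, 0 by limma with both normexp and no filter (2047 at an unadjusted p under 0.05), 249 with a foreground at least 3 times the background, 124 with the brightest probe, 1254 with the array as a block, 415 without CTR2 and ONC4, 0 in CTR2, CTR4, ONC1 and ONC3 alone, where labels and methods give the same dye but Cy5 still marks CTR (1961 unadjusted), 510 by the criterion of the methods and 0 by the methods' test after adjustment. Leaving out a retina gave 0 to 38 calls, 38 without ONC2 and 0 without any of the other 7 (2085 to 3252 unadjusted). Of the 10 genes, 2 were called with median scaling, 2 with the block and 1 by the criterion of the methods, and 0 under every other alternative. Their median log2 difference ranged from -0.78 to -0.27 with a retina left out. The cause of these changes was not tested. Low signal over background limits Socs3 and the dim probes of Cd44. Socs3 had mean log2 levels of -2.95 in CTR and -3.20 in ONC. Those of Itih4 (-3.05 and -3.35), Fgf18 (-3.09 and -2.58) and Hmmr (-3.48 and -2.82) were about as low.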
